A study of Mus musculus with 24 samples.

Results

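The 9 genes described here, Xcr1, Clec9a, Batf3, Itgae, Irf8, Flt3, Zbtb46, Sirpa and Cd209a, are commonly used to tell dendritic cells and their subsets from other leukocytes. They were taken by name from the deposited table of transcript abundance, in which the rows of a gene name were summed, and they are 9 of its 56422 gene names. All 9 passed the filter on low values and were among the 15163 genes tested. RNA was sequenced in 24 mouse libraries labelled as peritoneum, from samples of peritoneal metastasis, with 6 libraries in each of 4 groups: propionate alone, butyrate alone, the combination of propionate and butyrate, and controls whose treatment is given as none. The labels state no dose, treatment time, tumour line, strain or age. Nor do they say whether each library of a group is its own animal, and the p-values below therefore rest on a spread between libraries that may be technical. Values are TPM, transcript abundances scaled so that each library sums to 1000000, so the sequencing depth is unknown and no counting error can be given.

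Dendritic cells take up antigen and present it to T cells. Conventional type 1 dendritic cells (cDC1) depend on the transcription factors Irf8 and Batf3 and are known for presenting antigen from dead cells to CD8 T cells. Conventional type 2 dendritic cells (cDC2) carry Sirpa and present mainly to CD4 T cells, and both subsets arise from progenitors that carry the receptor Flt3. The 2 treatments are short-chain fatty acids that gut bacteria release when they ferment fibre.

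One library stood apart from the others. Combination replicate 5 had 221.5 TPM of the pan-leukocyte gene Ptprc, 274.99 TPM of the B cell gene Cd79a and 68.78 TPM of the T cell gene Cd3e, whereas the highest values in the other 23 libraries were 33.56, 3.62 and 7.07 TPM. It also had 2.52 TPM of the skeletal muscle actin Acta1, against at least 5384 TPM in every other library, and the mesothelial gene Wt1 was listed at 0. The member comparisons and gene lists that use the combination group are therefore given with and without it. The remaining libraries held muscle in quantity and differed widely in Wt1, with 1.07 to 335.82 TPM in propionate, 0.37 to 166.34 TPM in butyrate, 1.76 to 216.41 TPM in the other 5 combination libraries and 0.65 to 367.81 TPM in control libraries.

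The windows around the start sites of 4 members are shown because these genes span the cDC1 lineage (Xcr1, Clec9a, Batf3) and the member whose level relative to Ptprc did not overlap between combination and control libraries (Zbtb46), which 26.8% of all genes also showed. They are 300 bases each, 5′ to 3′ on the strand of the gene, from RefSeq on build GRCm38.p6, which is older than the mm39 build of the deposited table. Capitals mark a match to a searched motif. A window was found for 7 of the 9 members, all but Itgae and Sirpa. The windows are Xcr1 at chr9:123861980-123862279 on the minus strand, Clec9a at chr6:129408612-129408911 on the plus strand, Batf3 at chr1:191098164-191098463 on the plus strand and Zbtb46 at chr2:181424339-181424638 on the minus strand.
Xcr1: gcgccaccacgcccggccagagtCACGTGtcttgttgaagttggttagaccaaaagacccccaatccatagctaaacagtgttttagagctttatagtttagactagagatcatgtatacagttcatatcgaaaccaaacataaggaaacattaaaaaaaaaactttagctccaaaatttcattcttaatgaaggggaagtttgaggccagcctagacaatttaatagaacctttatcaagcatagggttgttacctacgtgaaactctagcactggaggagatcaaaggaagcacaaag
Clec9a: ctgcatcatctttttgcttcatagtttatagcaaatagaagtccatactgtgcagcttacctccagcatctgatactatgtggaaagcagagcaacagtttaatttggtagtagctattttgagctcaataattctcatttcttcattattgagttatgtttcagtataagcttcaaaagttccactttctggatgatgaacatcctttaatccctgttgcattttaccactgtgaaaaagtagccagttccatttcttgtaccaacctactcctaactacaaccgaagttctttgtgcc
Batf3: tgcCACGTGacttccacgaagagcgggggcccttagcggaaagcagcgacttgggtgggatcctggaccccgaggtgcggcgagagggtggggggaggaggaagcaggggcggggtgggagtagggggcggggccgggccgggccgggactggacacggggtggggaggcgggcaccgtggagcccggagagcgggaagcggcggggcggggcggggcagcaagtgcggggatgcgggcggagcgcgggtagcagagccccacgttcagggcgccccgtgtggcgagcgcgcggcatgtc
Zbtb46: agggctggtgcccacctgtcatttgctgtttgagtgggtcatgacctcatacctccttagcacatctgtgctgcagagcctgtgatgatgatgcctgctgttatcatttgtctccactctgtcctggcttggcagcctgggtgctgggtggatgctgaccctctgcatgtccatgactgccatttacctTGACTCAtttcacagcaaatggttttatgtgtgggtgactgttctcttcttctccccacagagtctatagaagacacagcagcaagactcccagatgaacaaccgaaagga

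Both strands were searched for 4 motifs, none of which overlapped another in these windows. The AP-1 motif TGANTCA, the kind of site bound by Batf family dimers, stood in the Zbtb46 window and in 7.81% of all 32851 mouse windows of this length. The bases just before the annotated Zbtb46 start have the form of a splice acceptor, so this match may lie in an intron. Whether transcription begins at the annotated starts in these libraries was not tested. The E-box CACGTG stood in the Xcr1, Batf3 and Flt3 windows and in 7.15% of all windows. The interferon response motif, 2 GAAA repeats with any 2 bases between them, found in 3.44% of all windows, and the PU.1 motif AGGAAGT, found in 9.35%, had no match in any of the members' windows. The windows of Clec9a, Irf8 and Cd209a held none of the 4.

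Of the cDC1 genes, Xcr1, the receptor for the chemokine Xcl1, was low in all groups. Its lowest, median and highest TPM were 0.17, 0.405 and 2.79 in propionate, 0.04, 0.455 and 1.16 in butyrate, 0.33, 1.58 and 3.54 in the combination, and 0.15, 0.965 and 1.28 in control libraries. The groups overlapped, and 4 of 6 combination libraries were above the highest control library. Combination lay above control by 0.44 ± 0.31 on the log2(TPM + 1) scale (SE, limma adjusted p = 0.570), and by 0.27 ± 0.30 without replicate 5 (adjusted p = 0.625).

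Clec9a, a lectin receptor that senses actin exposed by dead cells, had a lowest, median and highest TPM of 0.35, 1.31 and 4.61 in propionate, 0.62, 1.53 and 3.97 in butyrate, 0.88, 3.68 and 8.08 in the combination, and 0.73, 1.675 and 2.66 in control libraries. The propionate libraries spread from below to above the whole control range. Combination lay above control by 0.74 ± 0.40 in log2 (SE, limma adjusted p = 0.514), and by 0.52 ± 0.40 without replicate 5 (adjusted p = 0.539).

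Batf3, the transcription factor required for cDC1 development, had 2.06, 3.515 and 6.63 TPM in propionate, 2.07, 3.85 and 4.41 TPM in butyrate, 2.92, 5.49 and 10.18 TPM in the combination, and 1.88, 3.315 and 5.72 TPM in control libraries (lowest, median, highest). The combination range began inside the control range and ended above it. Its difference between combination and control, 0.57 ± 0.27 in log2 (SE), had an unadjusted p of 0.0477 and a limma adjusted p of 0.482. Without replicate 5 the difference was 0.42 ± 0.27 (adjusted p = 0.536). In bulk RNA, a change in dendritic cell number and one in RNA per cell cannot be told apart, here and in all results below.

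Itgae, the integrin chain CD103, which is also carried by tissue-resident T cells, had 0.21, 0.475 and 2.82 TPM in propionate, 0.19, 0.64 and 1.71 TPM in butyrate, 0.34, 1.415 and 8.73 TPM in the combination, and 0.23, 1.085 and 1.28 TPM in control libraries (lowest, median, highest). Replicate 5 decided much of the combination mean, which was 2.51 ± 3.17 TPM with it and 1.26 ± 0.97 TPM without it, against 0.963 ± 0.383 TPM in controls (SD, n = 6, 5 and 6). The log2 difference between combination and control was 0.50 ± 0.38 with all libraries (SE, limma adjusted p = 0.599) and 0.13 ± 0.31 without replicate 5 (adjusted p = 0.819).

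Irf8, a transcription factor of cDC1 that B cells and macrophages also use, was the most abundant of the cDC1 genes in TPM. It had 4.19, 5.215 and 20.36 TPM in propionate, 2.40, 6.835 and 13.28 TPM in butyrate, 5.80, 17.595 and 77.99 TPM in the combination, and 3.23, 11.31 and 13.20 TPM in control libraries (lowest, median, highest). Propionate replicates 1, 2 and 5 were within 4.19 to 4.29 TPM, while replicates 3 and 4 of that group had 18.68 and 20.36 TPM. Combination lay above control by 0.82 ± 0.51 in log2 (SE, limma adjusted p = 0.544), and by 0.41 ± 0.46 without replicate 5 (adjusted p = 0.630).

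Flt3, the receptor tyrosine kinase for the growth factor Flt3l, had 0.12, 0.375 and 2.30 TPM in propionate, 0.15, 0.615 and 1.44 TPM in butyrate, 0.42, 1.715 and 10.46 TPM in the combination, and 0.47, 1.185 and 1.41 TPM in control libraries (lowest, median, highest). Replicate 5 had 10.46 TPM and the next highest combination library 2.33 TPM. The log2 difference between combination and control was 0.56 ± 0.38 with all libraries (SE, limma adjusted p = 0.560) and 0.17 ± 0.29 without replicate 5 (adjusted p = 0.749). The ligand Flt3l had 6.75 to 28.69 TPM in the combination and 4.16 to 5.70 TPM in control libraries. These do not overlap, as for 0.745% of all genes in either direction. The other 5 combination libraries reached 7.36 TPM at most, while Flt3l reached 9.31 TPM in propionate and 9.31 TPM in butyrate libraries. The log2 difference of Flt3l between combination and control, 0.75 ± 0.27, did not pass adjustment (SE, limma adjusted p = 0.330), and was 0.44 without replicate 5.

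Zbtb46, a transcription factor of conventional dendritic cells that endothelium also expresses, had 1.71, 2.74 and 11.76 TPM in propionate, 1.76, 3.145 and 8.80 TPM in butyrate, 2.68, 6.00 and 9.79 TPM in the combination, and 3.28, 9.255 and 12.53 TPM in control libraries (lowest, median, highest). It was the 1 member whose median was highest in control of the 4 groups. Butyrate lay below control by a log2 difference of -1.02 ± 0.42 (SE, unadjusted p = 0.0232, limma adjusted p = 0.116) and propionate by -0.89 ± 0.42 (unadjusted p = 0.0443, adjusted p = 0.333). Without control replicate 3 the butyrate value was -1.24 and passed (adjusted p = 0.0323), as 37.3% of all genes did. With weights estimated per library it passed in propionate, butyrate and the combination, at -1.65, -1.36 and -0.92 (adjusted p = 4.26e-06, 6.17e-05 and 0.0144), as 75.4%, 67.6% and 38.2% of all genes did. Combination against control gave -0.51 ± 0.42 with all libraries (adjusted p = 0.620) and -0.60 ± 0.44 without replicate 5 (adjusted p = 0.536).

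Zbtb46 was high in the libraries that were high in Wt1. Control replicate 3, with 0.65 TPM of Wt1, had 3.28 TPM of Zbtb46, and the other 5 control libraries, with at least 131.15 TPM of Wt1, had 6.66 to 12.53 TPM of Zbtb46. Combination replicate 5 was the exception, with Wt1 listed at 0 and 7.86 TPM of Zbtb46. Over the 8 genes of the mesothelium and epithelium list, the summed level ranged over 18.38 to 1238.25 TPM in propionate, 7.64 to 550.39 TPM in butyrate, 19.49 to 836.57 TPM in the combination and 9.27 to 1514.55 TPM in control libraries. Over the 7 genes of the endothelium list the sums were 122.59 to 181.52 TPM, 126.30 to 235.05 TPM, 141.68 to 328.56 TPM and 131.73 to 200.78 TPM in propionate, butyrate, combination and control libraries. The part of either tissue in the Zbtb46 result was not tested.

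**Figure D1:**
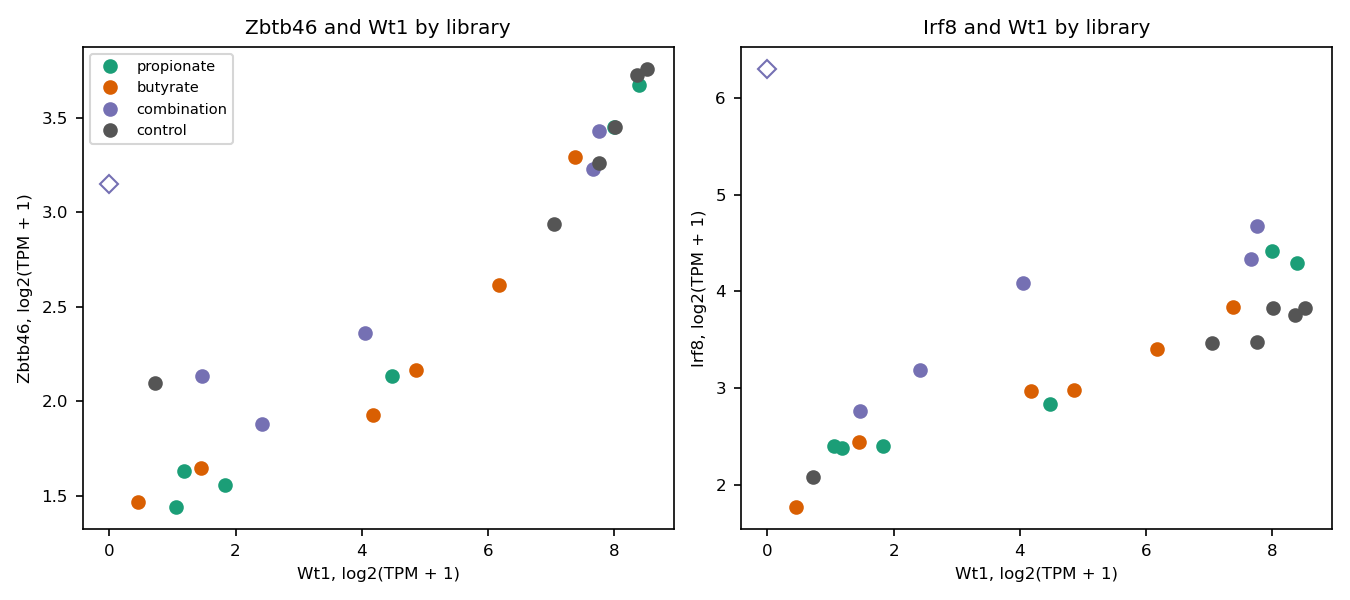
Log2(TPM + 1) of Zbtb46 (left) and Irf8 (right) on the vertical axes against Wt1 on the horizontal axis, a point a library coloured by group, with combination replicate 5 as an open diamond. Zbtb46 was 3.28 TPM in the control library with 0.65 TPM of Wt1 and 6.66 to 12.53 TPM in the other 5 control libraries, and combination replicate 5 lies apart from the other points in both panels.

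Of the 2 cDC2 members, Sirpa, a receptor for Cd47 that macrophages also carry, was the most abundant of the 9 genes. It had 12.29, 15.985 and 39.94 TPM in propionate, 13.20, 21.62 and 30.12 TPM in butyrate, 19.35, 36.85 and 55.00 TPM in the combination, and 15.74, 28.99 and 35.70 TPM in control libraries (lowest, median, highest). The groups overlapped, with 27 of 36 pairs of a combination and a control library higher in the combination. The log2 difference between combination and control was 0.38 ± 0.31 (SE, limma adjusted p = 0.616), and 0.25 ± 0.32 without replicate 5 (adjusted p = 0.660).

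Cd209a, a mouse homologue of the lectin DC-SIGN found on cDC2 and monocyte-derived dendritic cells, had 2.68, 6.145 and 15.84 TPM in propionate, 7.0, 8.89 and 10.25 TPM in butyrate, 6.57, 12.78 and 19.77 TPM in the combination, and 6.12, 9.895 and 12.28 TPM in control libraries (lowest, median, highest). Replicate 5 was not the highest combination library for this gene, with 12.24 TPM. Combination against control gave a log2 difference of 0.24 ± 0.32 (SE, limma adjusted p = 0.745), and 0.22 ± 0.34 without replicate 5 (adjusted p = 0.714).

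**Figure D2:**
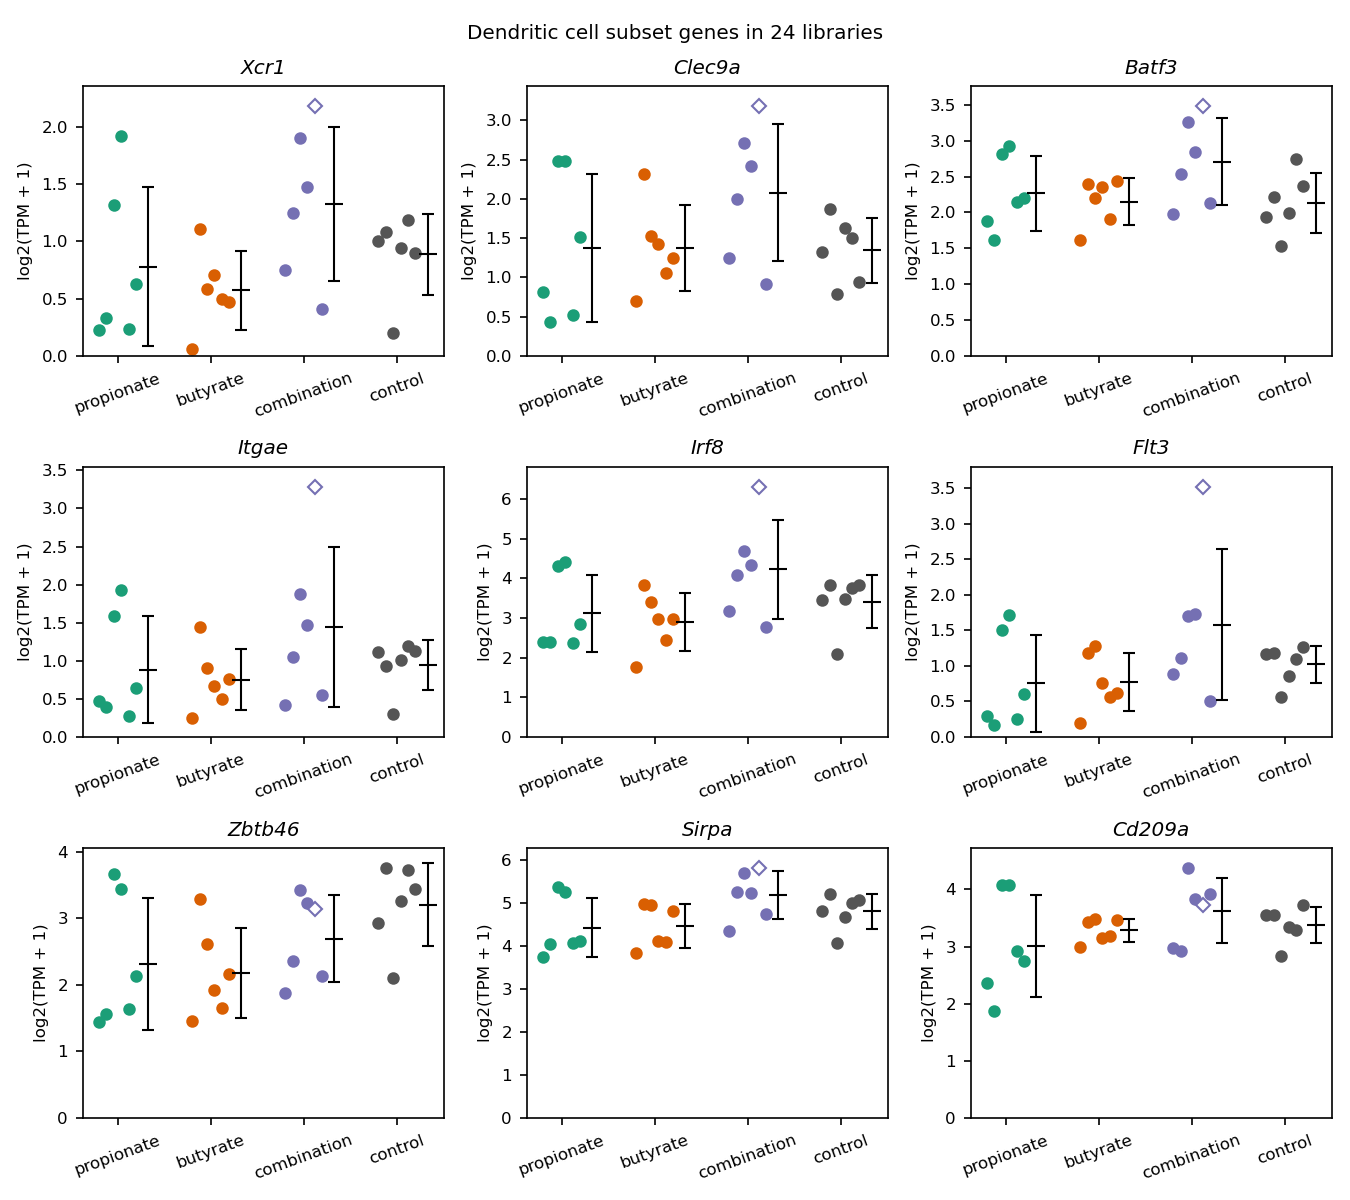
Log2(TPM + 1) of the 9 genes on the vertical axis, 1 panel a gene, for propionate, butyrate, combination and control libraries from left to right, with a point a library and the mean ± SD (n = 6) beside each group. The open diamond is combination replicate 5, which is the highest library for 7 genes but not for Zbtb46 and Cd209a, and the groups overlap in every panel.

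Across all genes, no gene passed adjustment in the combination against control (0% of 15163, limma), and the smallest adjusted p was 0.172. Unadjusted p-values under 0.05 were found for 940 genes in the higher and 622 in the lower direction. Of the members, 8 of 9 lay above 0 in this comparison, with a median log2 difference of 0.50 beside -0.12 over all genes, of which 34.1% lay above 0. Only Batf3 reached an unadjusted p under 0.05 in the higher direction, as 6.2% of all genes did. Without replicate 5, 8 of 9 still lay above 0, the median was 0.25 beside -0.18 over all genes, and no member reached an unadjusted p under 0.05, as 4.23% of all genes did in the higher direction. No member had groups that did not overlap, as 0.745% of all genes did. Median-of-ratios scaling, which brought the median of all genes to -0.02 and 47.4% of them above 0, called 46 genes (0.303%) and no member, with 8 of 9 members still above 0. Quantile normalization called 41 genes (0.27%), among them Batf3 at 0.65 (limma adjusted p = 0.0486). With median-of-ratios scaling 4 of 9 members reached an unadjusted p under 0.05 in the higher direction, as 1480 of 15163 genes did. With quantile normalization 7 of 9 members did, as 1520 of 15163 genes did. Both rescaled fits included replicate 5.

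Propionate and butyrate alone were each set against control. No gene passed adjustment in either (0% of 15163 in propionate and 0% in butyrate), with smallest adjusted p of 0.333 and 0.115. The unadjusted counts were 66 genes higher and 1385 lower in propionate, and 181 higher and 5325 lower in butyrate. In both comparisons 7 of 9 members lay below 0, with medians of -0.26 in propionate and -0.25 in butyrate beside -0.30 and -0.38 over all genes. With median-of-ratios scaling, 50.8% of all genes lay above 0 in each comparison, against 20.7% in propionate and 21.2% in butyrate without it. That scaling turned Itgae and Irf8 above 0 in propionate and Itgae, Sirpa and Cd209a above 0 in butyrate, and quantile normalization turned Xcr1, Itgae, Irf8 and Cd209a in propionate and Flt3, Itgae, Sirpa and Cd209a in butyrate. Zbtb46 was the 1 member at an unadjusted p under 0.05 in each, lower, as 9.13% of all genes were in propionate and 35.1% in butyrate. No member's groups separated, as 0.0396% of genes did for propionate and 1.89% for butyrate.

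**Figure D3:**
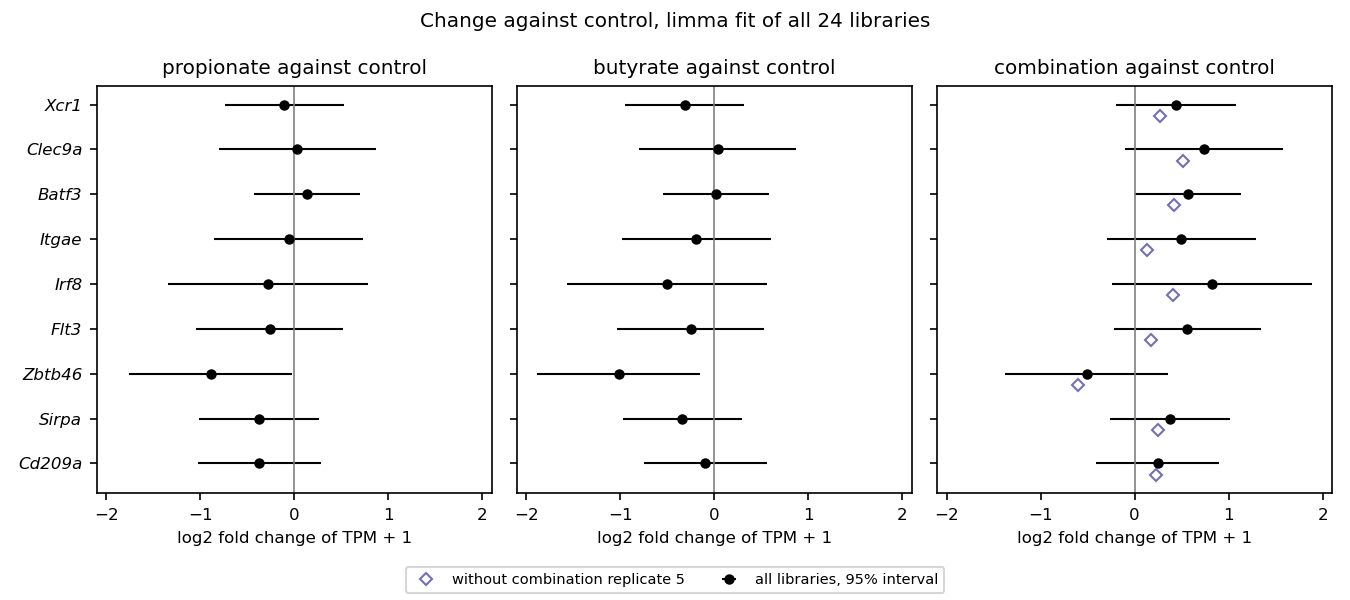
Log2 fold change of TPM + 1 against control (horizontal axis) for the 9 genes in propionate, butyrate and combination, from left to right. Points are limma estimates with 95% intervals from all 24 libraries, and open diamonds are combination estimates without replicate 5, which moves Flt3 to 0.17 and Itgae to 0.13.

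The combination was also set against each acid alone. No gene passed adjustment against propionate (0%, smallest adjusted p 0.507; 1278 genes higher and 65 lower unadjusted) or against butyrate (0%, smallest adjusted p 0.317; 2213 higher and 141 lower). All 9 members lay above 0 in both, with medians of 0.62 against propionate and 0.70 against butyrate, beside 0.19 and 0.30 over all genes, of which 76.9% and 81.6% lay above 0. Against propionate, Flt3 at 0.82 ± 0.38, Irf8 at 1.11 ± 0.51 and Sirpa at 0.76 ± 0.31 reached an unadjusted p under 0.05 (SE, limma adjusted p = 0.554, 0.557 and 0.542), as 8.43% of all genes did in the higher direction. Against butyrate these were Xcr1 at 0.76 ± 0.31, Flt3 at 0.81 ± 0.38, Irf8 at 1.33 ± 0.51 and Sirpa at 0.72 ± 0.31 (SE, limma adjusted p = 0.317 for each), as 14.6% of all genes did. Without replicate 5 the medians were 0.43 and 0.42 and no member reached an unadjusted p under 0.05 in either comparison, as 3.86% of all genes did in the higher direction against propionate and 5.99% against butyrate. Groups that did not overlap made up 0.145% of all genes against propionate and 0.739% against butyrate, and no member was among them. Both comparisons share the combination libraries. With median-of-ratios scaling 48.4% of all genes lay above 0 against propionate and 52.2% against butyrate, and the members' medians were 0.47 and 0.46. All 9 members stayed above 0 against propionate under both rescalings, and Cd209a lay at -0.019 against butyrate with quantile normalization.

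Butyrate, whose carbon chain is longer by a single carbon, was compared with propionate in 1 pair of groups, with no dose stated for either. No gene passed adjustment (0%, smallest adjusted p 1; 25 genes higher and 82 lower unadjusted). The members' differences lay between -0.22 for Irf8, with a 95% interval of -1.29 to 0.84, and 0.28 for Cd209a, with an interval of -0.38 to 0.93. None of the 9 reached an unadjusted p under 0.05, and the intervals leave room for a difference of either sign in every member. Non-overlapping groups made up 0.0725% of all genes and no member.

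The interaction asked whether the combination differed from propionate by more than butyrate differed from control. No gene passed adjustment (0%, smallest adjusted p 0.128), and unadjusted p-values under 0.05 were found for 5275 genes in the higher and 144 in the lower direction. All 9 members lay above 0, as 83.7% of all genes did, with a median of 0.87 beside 0.62. Irf8 at 1.61 ± 0.73, Zbtb46 at 1.40 ± 0.59 and Sirpa at 1.10 ± 0.43 reached an unadjusted p under 0.05 (SE, limma adjusted p = 0.131, 0.128 and 0.128), as 34.8% of all genes did. Without replicate 5, Zbtb46 at 1.31 ± 0.61 and Sirpa at 0.97 ± 0.44 did (adjusted p = 0.199 for each), as 24.5% of all genes did. Without propionate replicate 3, Irf8, Zbtb46 and Sirpa passed, at 1.85, 1.67 and 1.28 (adjusted p = 0.0497, 0.037 and 0.0366), as 37.1% of all genes did. With weights per library, 8 of 9 members passed in the interaction and 8 of 9 in the combination against propionate, all higher, where 72.4% and 33.1% of all genes passed in either direction. With the same weights 8 of 9 passed in propionate against control, all lower, where 75.4% of all genes passed. With median-of-ratios scaling or quantile normalization Batf3 lay below 0, and with quantile normalization Cd209a did too.

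The members were high and low in the same libraries. Most of the high values came from replicates 3, 4 and 5 of the combination, 3 and 4 of propionate and 2 of butyrate. Most of the low ones came from replicates 1, 2 and 5 of propionate, 1 of butyrate and 3 of control. Over the 23 libraries other than combination replicate 5, Spearman's rho between members ranged over 0.615 to 0.965 in 36 pairs, with a median of 0.853. These values are a description, since the libraries share differences in tissue content. Ptprc was high in the same libraries, with 4.64 to 25.71 TPM in propionate, 5.57 to 17.45 TPM in butyrate, 11.48 to 221.5 TPM in the combination (up to 33.56 TPM without replicate 5) and 8.85 to 18.03 TPM in control libraries.

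**Figure D4:**
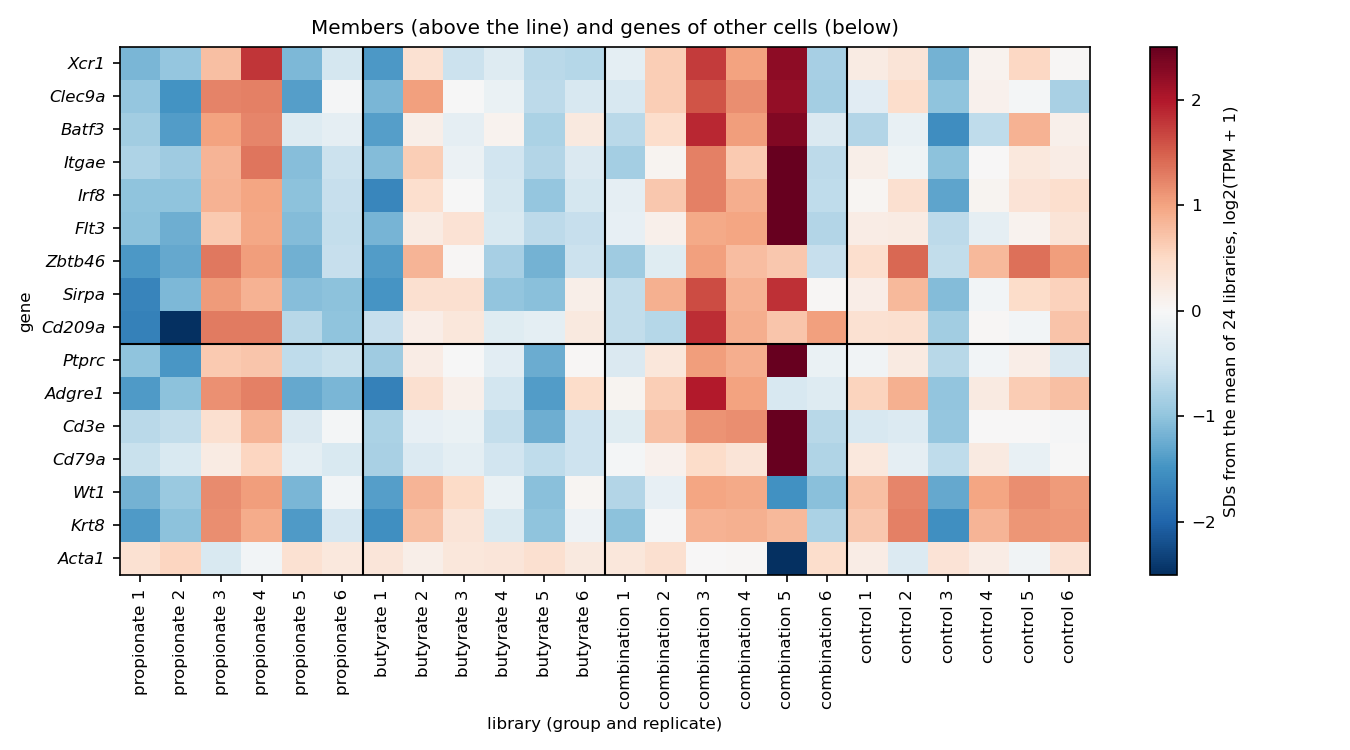
Each row is a gene and each column a library (propionate, butyrate, combination and control from left to right), and the colour gives log2(TPM + 1) as SDs from the gene's mean over the 24 libraries, red above and blue below, with the scale ending at 2.5 SDs. The 9 members stand above the line and genes of other cells below it. Many columns that are red for most members are also red for Ptprc, with 221.5 TPM of it in combination 5. Control 6 is an exception, with 11.49 TPM of Ptprc beside 13.2 TPM of Irf8 and 32.42 TPM of Sirpa.

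Genes shared by all leukocytes were set beside the members. The 7 genes of the pan-leukocyte list summed to 226.13 to 2691.9 TPM in the combination, up to 777.26 TPM without replicate 5, and to 130.24 to 476.03 TPM in controls. In the combination against control all 7 lay above 0, with a median log2 difference of 0.86 (0.38 without replicate 5), which is larger than the members' median of 0.50 (0.25). A further fit took the mean level of this list as a covariate, chosen after the data were seen. By construction, the covariate removes the part of a difference that follows the list. In that fit 5 of 9 members lay above 0 against control with a median of 0.03, beside 27% and -0.315 over all genes. Against propionate 2 of 9 did, with a median of -0.13, beside 30.4% and -0.166 over all genes. Against butyrate 1 of 9 did, with a median of -0.14, beside 35.5% and -0.107 over all genes. In the interaction 2 of 9 members lay above 0, beside 60.1% of all genes. With replicate 5 also left out, 6 of 9 lay above 0 against control, beside 27.1% of all genes. Against propionate 2 of 9 did (30.4%), against butyrate 1 of 9 (34.9%) and in the interaction 1 of 9 (51.4%). In the same fit Zbtb46 was lower in the combination than in control, by -1.04 in log2 (limma adjusted p = 0.00322), and by -0.90 without replicate 5 (adjusted p = 4.5e-05), where 50.8% and 54.2% of all genes passed.

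As a ratio to Ptprc, on the scale of log2 of TPM + 1, Zbtb46 was lower in every combination library than in every control library. The ratio was -4.65 to -1.68 in the combination, -1.96 at the lowest without replicate 5, and -1.20 to -0.19 in controls. It was the 1 member of 9 with this separation, which 26.8% of all genes showed with replicate 5 and 26.8% without it, so the gene did not stand apart from the background. For Xcr1 the ratio was -5.62 to -2.89 in the combination, -3.50 at the lowest without replicate 5, and -3.17 to -2.74 in controls. For Irf8 it was -1.49 to -0.24 in the combination, -1.07 at the lowest without replicate 5, and -1.22 to 0.19 in controls. Both overlap.

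By Spearman's rho over the same 23 libraries, the tested genes most like each member were found. For Xcr1 they were Irf8, Aif1 and Slamf8 (rho 0.965, 0.959 and 0.955), for Clec9a P2ry10 and Lpar6 (0.935 and 0.930), and for Batf3 Trim30d, Birc3 and Gpr35 (0.910, 0.901 and 0.900). For Flt3 they were Traf1, Slamf6 and Cd300c2 (0.948, 0.945 and 0.942), and for Itgae the inhibitory receptor Tigit, Rasgrp1 and Irf8 (0.958, 0.955 and 0.955). For Irf8 they were Cd52, Birc3 and Tnfrsf1b (0.977, 0.970 and 0.970). Zbtb46 differed from the other members in this list, with the actin-binding protein Cttn, the enzyme Hsd3b7 and the integrin chain Itga6 (0.994, 0.992 and 0.992). Sirpa was most like Rassf5, Lcp1 and Evi2b (0.984, 0.980 and 0.975), and Cd209a most like the mast cell protease Cpa3, Gpr183 and Lefty1 (0.930, 0.899 and 0.890). These are descriptions over libraries that share tissue content.

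Other genes of the dendritic lineage were read from lists. In the combination against control, 7 of 10 tested other cDC1 genes lay above 0, with a median of 0.38 (0.12 without replicate 5), and 3 reached an unadjusted p under 0.05, all higher, as 6.2% of all genes did. Without replicate 5, 6 of 10 lay above 0 and 2 reached that p, beside 30.2% and 4.23% of all genes in the higher direction. With replicate 5, 34.1% of all genes lay above 0. The 3 with all libraries were Ifi205 at 1.19 ± 0.34, Tlr11 at 0.73 ± 0.24 and Id2, a factor cDC1 need, at 0.69 ± 0.30 (SE, limma adjusted p = 0.24, 0.30 and 0.425), and without replicate 5 the values were 1.12, 0.53 and 0.52. Of 11 tested other cDC2 genes, 8 lay above 0 with a median of 0.70 (0.34 without replicate 5), and 5 reached that p, all higher, beside the same 6.2% of all genes. Without replicate 5, 6 of 11 lay above 0 and 5 reached that p, beside the same 30.2% and 4.23% of all genes. The lectins Clec10a, at 0.70 ± 0.20, and Mgl2, at 0.75 ± 0.22, and the cDC2 transcription factor Irf4, at 0.78 ± 0.24, had the smallest p of them (SE, limma adjusted p = 0.240, 0.259 and 0.269), and without replicate 5 the values were 0.63, 0.88 and 0.51.

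Clec10a had 40.45 to 79.65 TPM in the combination and 28.41 to 37.61 TPM in controls, and Irf4 had 3.23 to 14.95 TPM (5.70 TPM at most without replicate 5) and 2.05 to 3.04 TPM. The groups did not overlap for either gene, as for 0.745% of all genes. Macrophages can also carry Clec10a and Mgl2, and the macrophage gene Adgre1 had 24.47 to 78.34 TPM in the combination (25.43 TPM at the lowest without replicate 5) and 18.40 to 46.10 TPM in controls. All 12 macrophage and monocyte genes lay above 0 (11 of 12 without replicate 5), with a median of 0.26 (0.21 without it), and their part in the cDC2 values was not tested.

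Of 7 tested plasmacytoid dendritic cell genes 5 lay above 0, with a median of 0.47 (6 of 7 and 0.32 without replicate 5), and Ly6d at 2.43 ± 0.95 and the factor Tcf4 at 0.45 ± 0.21 reached an unadjusted p under 0.05 (SE, limma adjusted p = 0.376 and 0.471). Without replicate 5 they were at 1.34 and 0.33, and none of the 7 reached that p. Of 12 tested genes of mature migratory dendritic cells 10 lay above 0, with a median of 0.58 (0.27 without replicate 5), and the costimulatory ligand Cd80, at 0.41 ± 0.18, reached that p (SE, adjusted p = 0.420). Without replicate 5 Cd80 was at 0.30, 8 of 12 lay above 0 and none reached that p. All 7 pan-dendritic and antigen-presenting genes lay above 0 with a median of 0.10, and 4 of 7 did without replicate 5, with none at that p. Over all genes, 34.1% lay above 0 and 6.2% reached that p in the higher direction. Without replicate 5, 30.2% and 4.23% did. Itgax, the integrin CD11c, had 0.77 to 8.45 TPM in the combination and 1.13 to 5.38 TPM in controls.

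Of 10 tested growth factors, receptors and ligands of dendritic cells 7 lay above 0, beside 34.1% of all genes. The median was 0.67 (0.39 without replicate 5). Flt3l, the chemokine Ccl5 at 1.87 ± 0.86 and Id2, which is also in the cDC1 list, reached an unadjusted p under 0.05 (SE, limma adjusted p = 0.330, 0.470 and 0.425). Without replicate 5 they were at 0.44, 1.16 and 0.52, and 1 of the 10 reached that p, beside 6.2% of all genes with replicate 5 and 4.23% without it. Xcl1, the ligand of Xcr1, had 0.22 to 13.77 TPM in the combination and 0.23 to 2.80 TPM in controls, which overlap. All 10 tested T cell genes lay above 0 as well, with a median of 1.31 (0.55 without replicate 5), and Cd3e had 0.63 to 68.78 TPM in the combination, 7.07 TPM at most without replicate 5, and 0.30 to 1.98 TPM in controls.

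Lists of other tissues were read in the same comparison, in which no gene passed adjustment. Over all genes, 34.1% lay above 0 and 6.2% reached an unadjusted p under 0.05 in the higher direction. Without replicate 5, 30.2% and 4.23% did. All 6 adipocyte genes lay above 0 and reached an unadjusted p under 0.05, with a median of 1.70, and 4 of 6 did without replicate 5, with a median of 1.21. Their summed level was 987.51 to 16895.38 TPM in the combination, up to 6445.85 TPM without replicate 5, and 614.71 to 1872.13 TPM in controls. Of 7 endothelium genes 6 lay above 0 and 4 reached that p, all higher, with a median of 0.42, and 2 did without replicate 5, with a median of 0.32. All 8 skeletal muscle genes lay below 0 with a median of -1.65, and all 8 lay above 0 without replicate 5, with a median of 0.28. Of 7 tested mesothelium and epithelium genes none lay above 0, with a median of -1.39 (-1.45 without replicate 5). Of these, 1 reached that p, lower, as 622 of 15163 genes did, and none did without replicate 5. Against control, the median of this list was -2.07 in propionate and -2.24 in butyrate. The part of adipocyte, endothelial, mesothelial and epithelial RNA in the members' values was not tested.

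The sum by gene name rested on different numbers of transcripts. Xcr1 had 1 deposited transcript, and a single transcript held 98.6% of the summed TPM of Flt3, 96.6% of Cd209a, 96.0% of Irf8 and 92.7% of Itgae over all libraries. The sum of Sirpa was spread over 14 transcripts, 11 of them above 0, and the largest held 36.0%. In Zbtb46, Clec9a and Batf3 the largest held 79.4%, 67.6% and 60.6%.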

How the data were processed

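RNA was extracted with TRIzol and made into stranded libraries of polyadenylated RNA, per the labels' protocols. The authors deposited 1 table of TPM with 149132 transcripts, and the submitters' processing notes name fastp, HISAT2, StringTie and the mouse build mm39; which versions, settings and gene annotation were used is not given in the sources used here. Whether counting used the strand is not stated, so reads of overlapping antisense genes are uncertain. Each deposited TPM column summed to 1000000, so a transcript that takes more of a library lowers all others. Rows without a gene name, 1001 in all with 0.174 to 0.470% of the TPM, were left out, and the rest were summed by gene name.

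Genes that reached a TPM of 1 in 6 or more libraries were fitted as log2(TPM + 1), with a pseudocount of 1, by limma 3.58.1 (trend and robust moderation) in R 4.3.3, all 24 libraries in 1 fit. P-values are two-sided with Benjamini-Hochberg adjustment over 15163 genes, and the threshold was 0.05. Log2 fold changes on this scale understate changes of low genes. The script was tested on simulated data. Libraries were grouped by title, and replicate numbers are those of the titles. Combination replicate 5 is named P_combine_6 in its library description, and the last number of that description is the library number. The members, lists and comparisons were chosen with earlier results of these data known. All members are named, with the 3 genes most like each by Spearman's rho and up to 3 genes of smallest p (unadjusted p under 0.05, combination against control) from a list. A result that this rule names for Clec9a is not reported here. Alternatives were a pseudocount of 0.1, other filters, median-of-ratios scaling, quantile normalization, moderation without trend, only the groups compared, weights per library, replicate blocks and leaving out each library. After the data were seen, 4 fits were added that took the mean log2(TPM + 1) of the pan-leukocyte or of the skeletal muscle list as a covariate, with and without combination replicate 5. Windows around annotated start sites came from RefSeq, build GRCm38.p6.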

Additional observations from a re-analysis of the deposited data

Results flagged for a closer look

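Among 36 sets of 6 libraries (9 genes in 4 groups), 6 had a library far from the other 5 by Dixon's criterion. Chance alone meets it in about 5% of sets of normally distributed values. It was applied to TPM and not to log2(TPM + 1), so this share may not hold here. Combination replicate 5 was far above the other combination libraries in Flt3 (10.46 TPM), Itgae (8.73 TPM) and Irf8 (77.99 TPM). The same library had 221.5 TPM of Ptprc. Control replicate 3 was far below the other control libraries in Xcr1 (0.15 TPM), Itgae (0.23 TPM) and Irf8 (3.23 TPM). That library had 0.65 TPM of Wt1. The 6 are not independent, since they come from 2 libraries.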

How the results depend on the processing

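All member values here are log2 fold changes, and a gene was called at an adjusted p under 0.05. The fit described above called no gene in any of the 7 comparisons. With a pseudocount of 0.1, Clec9a turned to -0.14 in propionate against control. The other filters, the fit of only the groups compared, moderation with no trend and no robust setting and the replicate block by title number changed no count and no other sign. Median-of-ratios scaling called 46 in combination against control and quantile normalization 41 in combination against control, among them Batf3 at 0.65 (limma adjusted p = 0.0486). With median-of-ratios scaling 6 of 63 member values changed sign. Itgae at 0.049 and Irf8 at 0.041 turned in propionate against control. For butyrate against control the sign changed for Itgae at 0.0037, Sirpa at 0.11 and Cd209a at 0.33. Turned values in the interaction were Batf3 at -0.15. With quantile normalization 11 of 63 member values changed sign. In propionate against control it turned Xcr1 at 0.14, Itgae at 0.18, Irf8 at 0.13 and Cd209a at 0.037. Flt3 at 0.0043, Itgae at 0.048, Sirpa at 0.14 and Cd209a at 0.40 turned in butyrate against control. For combination against butyrate the sign changed for Cd209a at -0.019. Turned values in the interaction were Batf3 at -0.27 and Cd209a at -0.056.

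Weights per library were estimated from how far a library lay from its group. They called genes in 6 comparisons, 11434 in propionate against control, 10256 in butyrate against control, 5786 in combination against control, 5026 in combination against propionate, 572 in combination against butyrate and 10982 in the interaction, and 28 member values passed the threshold that had not, with their sign kept, and Clec9a passed in propionate against control with its sign turned. The cause was not tested. With these weights 11 of 63 member values changed sign. In propionate against control it turned Clec9a at -0.68 and Batf3 at -0.12. Clec9a at -0.14 and Batf3 at -0.025 turned in butyrate against control. For combination against control the sign changed for Itgae at -0.056 and Cd209a at -0.085. Turned values in butyrate against propionate were Xcr1 at 0.22, Batf3 at 0.096, Itgae at 0.24, Irf8 at 0.30 and Zbtb46 at 0.28.

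The replicate numbers were not taken as pairs. Libraries with the same title number had correlations of deviations of -0.865 to 0.737, those with the same library number -0.395 to 0.699, and 2 of 24 libraries correlated best with their own number in either case. By library number, all correlations were positive for numbers 1 to 5, and negative ones stood only in numbers 6 to 8. The replicate block by library number called 7903 in butyrate against control, 5 in combination against butyrate and 5426 in the interaction. In it Zbtb46 in butyrate against control was -1.23 (limma adjusted p = 0.00484), and Irf8, Zbtb46 and Sirpa passed in the interaction. With the replicate block by library number 6 of 63 member values changed sign. In propionate against control it turned Itgae at 0.028. Clec9a at -0.15 and Batf3 at -0.15 turned in butyrate against control. For butyrate against propionate the sign changed for Clec9a at -0.30, Flt3 at -0.10 and Sirpa at -0.21.

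The 4 covariate fits were chosen after seeing the data. The covariate is measured in the same libraries and removes the part of a difference that follows the list, by construction. With the pan-leukocyte score they called 964 in butyrate against control and 7696 in combination against control, and with combination 5 left out 2546 in butyrate against control, 8216 in combination against control, 3274 in combination against propionate and 1092 in combination against butyrate. With the pan-leukocyte score 34 of 63 member values changed sign. Turned values in propionate against control were Xcr1 at 0.15, Flt3 at 0.074, Itgae at 0.28 and Irf8 at 0.19. In butyrate against control it turned Xcr1 at 0.0018, Flt3 at 0.16, Itgae at 0.23, Irf8 at 0.081 and Cd209a at 0.15. Itgae at -0.049, Sirpa at -0.037 and Cd209a at -0.076 turned in combination against control. For combination against propionate the sign changed for Xcr1 at -0.12, Clec9a at -0.17, Batf3 at -0.15, Flt3 at -0.049, Itgae at -0.33, Irf8 at -0.13 and Zbtb46 at -0.48. Turned values in combination against butyrate were Clec9a at -0.26, Batf3 at -0.087, Flt3 at -0.14, Itgae at -0.28, Irf8 at -0.013, Zbtb46 at -0.43, Sirpa at -0.019 and Cd209a at -0.23. In the interaction it turned Xcr1 at -0.12, Clec9a at -0.63, Batf3 at -0.45, Flt3 at -0.21, Itgae at -0.57, Irf8 at -0.21 and Cd209a at -0.060. With that score and combination 5 left out 35 of 63 member values changed sign. Xcr1 at 0.19, Flt3 at 0.029, Itgae at 0.26 and Irf8 at 0.21 turned in propionate against control. For butyrate against control the sign changed for Xcr1 at 0.052, Flt3 at 0.11, Itgae at 0.20, Irf8 at 0.10, Sirpa at 0.069 and Cd209a at 0.28. Turned values in combination against control were Flt3 at -0.020 and Itgae at -0.078. In combination against propionate it turned Xcr1 at -0.12, Clec9a at -0.17, Batf3 at -0.15, Flt3 at -0.049, Itgae at -0.33, Irf8 at -0.13 and Zbtb46 at -0.48. Clec9a at -0.27, Batf3 at -0.095, Flt3 at -0.13, Itgae at -0.28, Irf8 at -0.016, Zbtb46 at -0.46, Sirpa at -0.035 and Cd209a at -0.25 turned in combination against butyrate. For the interaction the sign changed for Xcr1 at -0.17, Clec9a at -0.70, Batf3 at -0.49, Flt3 at -0.16, Itgae at -0.53, Irf8 at -0.23, Zbtb46 at -0.039 and Cd209a at -0.18. In that last fit Zbtb46 in butyrate against control was -0.44 (limma adjusted p = 0.0358) and in combination against propionate it also passed (adjusted p = 0.0286). With the skeletal muscle score 1 of 63 member values changed sign. Turned values in propionate against control were Itgae at 0.010. With that score and combination 5 left out 6 of 63 member values changed sign. In propionate against control it turned Xcr1 at 0.067 and Itgae at 0.11. Flt3 at 0.017, Itgae at 0.084 and Cd209a at 0.21 turned in butyrate against control. For butyrate against propionate the sign changed for Zbtb46 at 0.040. The skeletal muscle fits called no gene.

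Leaving out each library in turn gave counts of genes called from 0 up to 5619 in the interaction (without propionate replicate 3), 1 in combination against butyrate (without butyrate replicate 6), 2 in combination against control (without combination replicate 6) and 5654 in butyrate against control (without control replicate 3). The single call in combination against butyrate also came without combination replicate 6. Without control replicate 3, Zbtb46 in butyrate against control was -1.24 (limma adjusted p = 0.0323), and without propionate replicate 3, Irf8, Zbtb46 and Sirpa passed in the interaction (adjusted p = 0.0497, 0.037 and 0.0366). Ranges over the 24 fits follow for the member values that changed sign or side. In propionate against control they were -0.34 to 0.0020 for Xcr1, -0.27 to 0.062 for Itgae, -0.19 to 0.22 for Clec9a and -0.0011 to 0.26 for Batf3. In butyrate against propionate they were -0.19 to 0.23 for Clec9a, -0.11 to 0.20 for Flt3, -0.10 to 0.22 for Sirpa, -0.27 to 0.078 for Itgae, -0.41 to 0.035 for Irf8, -0.35 to 0.14 for Zbtb46, -0.32 to 0.021 for Xcr1 and -0.24 to 0.020 for Batf3. In the interaction they were 1.20 to 1.91 for Irf8, 1.23 to 1.67 for Zbtb46 and 0.96 to 1.28 for Sirpa. In butyrate against control they were -0.15 to 0.17 for Clec9a, -0.10 to 0.14 for Batf3 and -1.24 to -0.88 for Zbtb46. TPM keeps no depth, so what depth limits could not be given.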
